A study of Mus musculus with 7 samples.

Results

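The D-type cyclins, their kinases Cdk4 and Cdk6, the inhibitors that bind these kinases and the retinoblastoma protein were followed at the RNA level in bulk RNA-seq of mouse glioblastomas (GBM). The 10 genes were taken by name from the raw count table, which holds 49492 genes, and are *Ccnd1*, *Ccnd2*, *Ccnd3*, *Cdk4*, *Cdk6*, *Cdkn2a*, *Cdkn2b*, *Cdkn2c*, *Cdkn1b* and *Rb1*. All 10 had counts in each of the 7 libraries, with a lowest value of 114 counts, and all 10 passed the filter on low counts. NSCHRas-shp53 GBMs (3 samples) were raised by injecting a lentivirus that carries a *Trp53* short hairpin RNA and a constitutively active human *HRAS* into the ventricular-subventricular zone of adult mice, and RNA was taken from whole tumor tissue. NPCTKO GBMs (4 samples) were raised by in utero electroporation of neocortical precursors with plasmids that carry Cas9 and guides against tumor suppressor genes, *Trp53* and *Nf1* among them, and EGFP+ or DsRed+ tumor cells were sorted by flow cytometry (FACS) for RNA. The labels give the strain C57BL/6 and an age of 3 months for all samples, and both models by design share an edit or knockdown of *Trp53*. The paper kept a reporter line that hosted DsRed-labeled NPCTKO tumors on a mixed background, only in part C57BL/6. Whether any library here came from that line is not given. There was no tumor-free control. The virus, the age at induction and the preparation (whole tissue or sorted cells) change together with the model and cannot be told apart. The sources used here do not say which mouse each library came from, so p-values measure the spread between libraries, which may be technical.

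In the G1 phase of the cell cycle, cyclin D proteins activate Cdk4 and Cdk6, which phosphorylate the retinoblastoma protein and so release E2F transcription factors that switch on the genes of DNA replication. INK4 proteins (p15Ink4b from *Cdkn2b*, p16Ink4a from *Cdkn2a*, p18Ink4c from *Cdkn2c*) block this step by binding the kinases, and p27Kip1 from *Cdkn1b* binds cyclin-kinase complexes. In human GBM this checkpoint is altered in most tumors, commonly through deletion of *CDKN2A* and *CDKN2B*, gain of *CDK4* or loss of *RB1*.

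Total counts were 17529054 to 19840860 in NSCHRas-shp53 and 15002873 to 19247326 in NPCTKO samples, and 3 counts, taken as the floor, correspond to 0.130 to 0.164 CPM in NSCHRas-shp53 and 0.156 to 0.234 CPM in NPCTKO samples (CPM are counts scaled to library size with TMM factors). The targeted *Trp53* was read at 54.9 to 82.3 CPM in NSCHRas-shp53 and 91.9 to 201 CPM in NPCTKO samples, and *Nf1* at 98.4 to 133 CPM in NSCHRas-shp53 and 41.6 to 230.2 CPM in NPCTKO samples. These counts cover the gene and not the edited site. The NPCTKO libraries fell into pairs: samples 1 and 2 leaned towards GC-rich transcripts (Spearman correlation across genes of a sample's deviation with transcript GC content of 0.57 and 0.49), whereas samples 3 and 4 leaned away from them (-0.38 and -0.35), as did NSCHRas-shp53 samples more weakly (-0.29 to -0.16). The Pearson correlation of log2 CPM was 0.980 between NPCTKO samples 1 and 2 and 0.946 between samples 3 and 4, against 0.818 to 0.880 across these pairs, and the labels name no batch. Results are therefore also given without either pair. Markers of several cell types, some of which tumor cells can also express, differed between the models. Of the marker lists, 8 of 11 pericyte and smooth muscle genes, 7 of 10 astrocyte genes, 9 of 11 neuron genes and 4 of 12 endothelial genes were higher in NSCHRas-shp53 samples and none was lower, 6 of 9 oligodendrocyte precursor and glioma stem-like genes were lower and 1 higher, 1 of 11 mature oligodendrocyte genes was higher, and 0 of 14 macrophage and microglia genes and 0 of 11 T cell genes passed the test. Summed over each list, pericyte and smooth muscle genes took 342 to 565 CPM in NSCHRas-shp53 and 28.4 to 46.1 CPM in NPCTKO samples, astrocyte genes 3166 to 4248 CPM and 238 to 723 CPM, endothelial genes 704 to 1425 CPM and 50.4 to 350 CPM, neuron genes 807 to 1687 CPM and 112 to 603 CPM, and precursor genes 1708 to 2206 CPM and 4577 to 6205 CPM, in the same order of the models. Macrophage and microglia genes took 2729 to 7856 CPM in NSCHRas-shp53 samples, against 19754 and 24672 CPM in NPCTKO samples 1 and 2 and 535 and 3360 CPM in samples 3 and 4. Mature oligodendrocyte genes took 1180 to 8549 CPM in NSCHRas-shp53 and 990.5 to 6488 CPM in NPCTKO samples, and T cell genes 47.9 to 87.7 CPM and 14.2 to 80.8 CPM. *Gfap*, *Sox2*, *Gpr17*, *Tubb3*, *Nefl* and *P2ry12* had 0 counts in every library but had FPKM values, so they are missing from these sums. The marker with the highest mean CPM was *C1qa* for macrophages and microglia, *Lck* for T cells, *Flt1* for endothelial cells, *Rgs5* for pericytes and smooth muscle, *Map2* for neurons, *Mbp* for oligodendrocytes, *Slc1a3* for astrocytes and *Olig1* for precursors. *Map2* made up most of the neuron sum in NPCTKO samples, at 70.2, 83.8, 503 and 275 CPM in samples 1 to 4. In NSCHRas-shp53 samples it was read at 213, 134 and 229 CPM, and edgeR did not call it (log2 fold change -0.28, adjusted p = 0.82). The part of other cell types in the results below was not tested.

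Among the 10 genes, 4 passed the test between the models (edgeR quasi-likelihood test, Benjamini-Hochberg adjusted p under 0.05), where 13.1% of all 16091 genes tested did. *Cdkn2b* and *Ccnd2* were higher in NSCHRas-shp53 GBMs, and *Cdkn2c* and *Cdk4* were lower. The CPM of the models did not overlap for 6 of the 10 genes, beside 31.3% of all genes. Over all genes tested, 7.77% were called higher and 5.28% lower. The median log2 fold change (NSCHRas-shp53 minus NPCTKO) of the 10 genes was 0.22, beside -0.10 over all genes tested. In bulk RNA, fewer cells of a type and less RNA per cell cannot be told apart. A limma test on log2(FPKM + 0.1) called the same 4 genes, beside 14.9% of all genes. Without NPCTKO samples 1 and 2, only *Cdkn2b* and *Cdkn2c* passed (16.3% of all genes), and without NPCTKO samples 3 and 4, 7 of the 10 passed (53.9% of all genes).

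**Figure D1:**
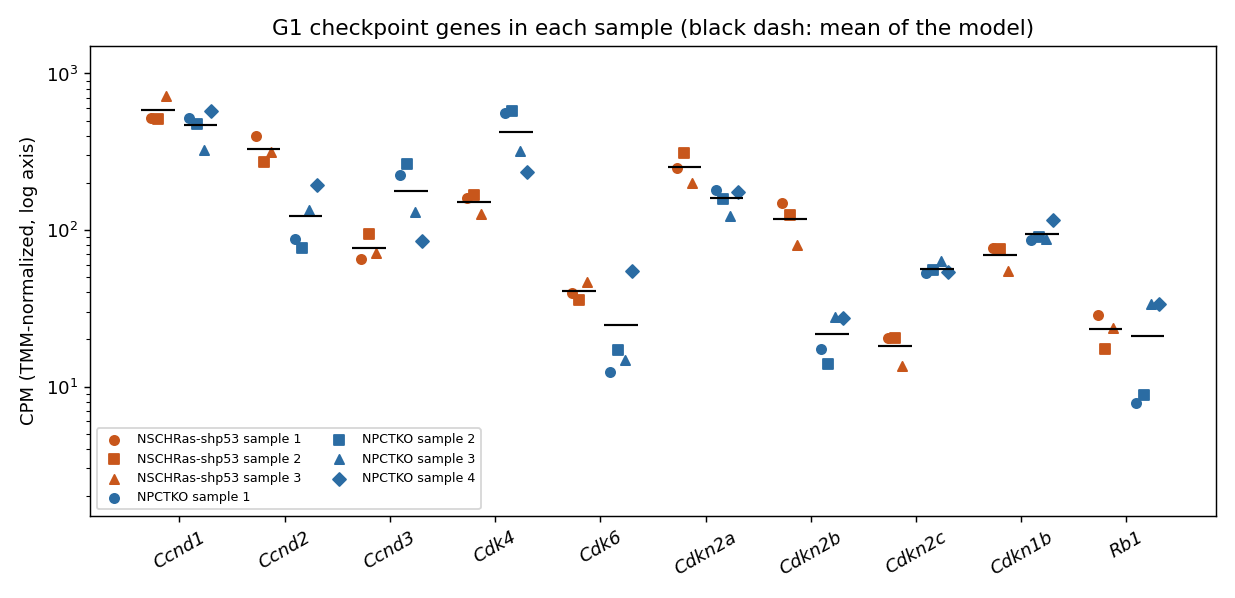
TMM-normalized CPM (log axis) of the 10 G1 checkpoint genes in each sample, with NSCHRas-shp53 samples in orange to the left and NPCTKO samples in blue to the right, a marker shape per sample number and a black dash at the mean of each model. *Cdkn2b* sits at 79.7 to 149 CPM in NSCHRas-shp53 and at 14.0 to 28.0 CPM in NPCTKO samples, *Cdkn2c* lies the other way, and the points of *Ccnd1*, *Ccnd3*, *Cdk6* and *Rb1* overlap.

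*Cdkn2b* and *Cdkn2c* had the largest log2 fold changes of the 10 genes, in opposite directions. *Cdkn2b*, on chromosome 4 of mm10 from 89306289 to 89311032 on the minus strand, reached 149, 124 and 79.7 CPM in NSCHRas-shp53 samples 1 to 3, against 17.3, 14.0, 28.0 and 27.6 CPM in NPCTKO samples 1 to 4. Every NSCHRas-shp53 sample lay well above every NPCTKO sample, and within NPCTKO samples 3 and 4 were the higher pair. The difference was 5.41-fold (log2 fold change 2.43, SE 0.36, adjusted p = 0.0071). It was called in all 15 alternative fits, with log2 fold changes of 2.11 to 2.89, and was 2.11 (adjusted p = 0.012) without NPCTKO samples 1 and 2 and 2.89 (adjusted p = 0.0010) without samples 3 and 4.

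*Cdkn2c*, on the same chromosome from 109660876 to 109667189 on the minus strand, encodes the close relative p18Ink4c and differed in the opposite direction. Its CPM were 20.5, 20.3 and 13.5 in NSCHRas-shp53 samples 1 to 3, against 53.2, 55.8, 63.8 and 53.6 in NPCTKO samples 1 to 4. The 4 NPCTKO values lay close together although the libraries of samples 1 and 2 differed from those of 3 and 4 over the genome. The log2 fold change was -1.64 (SE 0.28, adjusted p = 0.010), which is 3.12-fold lower in NSCHRas-shp53 GBMs. Without NPCTKO samples 1 and 2 it was -1.66 (adjusted p = 0.016), and without samples 3 and 4 it was -1.60 (adjusted p = 0.0024). The call was lost without NSCHRas-shp53 sample 3 (log2 fold change -1.46, adjusted p = 0.061).

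On the FPKM scale, which is per transcript length, the ratio of *Cdkn2b* to *Cdkn2c* was 7.39, 7.41 and 6.42 in NSCHRas-shp53 samples, against 0.375, 0.310, 0.621 and 0.682 in NPCTKO samples. *Cdkn2b* was thus the more abundant RNA of this pair in every NSCHRas-shp53 sample and *Cdkn2c* in every NPCTKO sample. The 250 bases before the RefSeq start of *Cdkn2b* and before the upstream start of *Cdkn2c* (RefSeq, GRCm38.p6) are shown because these paralogs differed in opposite directions, 5′ to 3′ on the strand of the gene, with GC boxes (GGGCGG or its complement CCGCCC) in capitals.
Cdkn2b, chr4:89311033-89311282, minus strand: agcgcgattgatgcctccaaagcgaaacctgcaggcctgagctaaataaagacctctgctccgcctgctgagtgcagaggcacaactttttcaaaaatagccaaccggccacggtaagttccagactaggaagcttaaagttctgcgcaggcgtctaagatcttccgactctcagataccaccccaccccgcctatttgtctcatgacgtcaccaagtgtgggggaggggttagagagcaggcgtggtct
Cdkn2c, chr4:109666757-109667006, minus strand: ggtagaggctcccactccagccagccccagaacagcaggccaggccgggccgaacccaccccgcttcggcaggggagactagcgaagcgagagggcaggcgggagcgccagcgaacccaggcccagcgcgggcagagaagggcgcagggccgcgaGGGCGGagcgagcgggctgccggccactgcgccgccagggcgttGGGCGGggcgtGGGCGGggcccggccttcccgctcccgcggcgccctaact
The *Cdkn2c* sequence holds 3 GC boxes, a number that 8.47% of 32851 mouse promoters of this length reach, and 32.7% hold at least 1. The *Cdkn2b* sequence holds no GC box, and neither does the sequence at the other matched start of *Cdkn2c* (chr4:109665373-109665622). The *Cdkn2c* bases shown lie within the coordinates given above for the gene. Such matches of letters are not measured binding. Of the 10 genes, 7 were matched in this table with 10 promoters, and *Ccnd1*, *Ccnd2* and *Rb1* were not.

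*Cdkn2a* lies next to *Cdkn2b* on chromosome 4 (89274471 to 89294653, minus strand) and its single row pools transcripts from separate starts. The transcript that starts at 89282192 encodes p16Ink4a, and the one that starts at 89294653 encodes p19Arf, which acts on the p53 pathway by restraining Mdm2 and not on Cdk4. Counts over the gene cannot tell these transcripts apart. Their upstream sequences (RefSeq, GRCm38.p6) are shown to give the separate starts, with E2F motifs (TTTCGCGC, TTTGGCGC, TTTCCCGC or TTTGCCGC, either strand) in capitals.
Cdkn2a, p19Arf start, chr4:89294620-89294869, minus strand: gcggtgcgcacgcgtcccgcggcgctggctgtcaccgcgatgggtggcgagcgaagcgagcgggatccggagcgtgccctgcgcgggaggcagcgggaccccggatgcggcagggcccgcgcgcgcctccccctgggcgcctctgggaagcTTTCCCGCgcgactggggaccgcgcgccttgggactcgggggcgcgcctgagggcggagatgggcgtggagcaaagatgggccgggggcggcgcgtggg
Cdkn2a, p16Ink4a start, chr4:89282193-89282442, minus strand: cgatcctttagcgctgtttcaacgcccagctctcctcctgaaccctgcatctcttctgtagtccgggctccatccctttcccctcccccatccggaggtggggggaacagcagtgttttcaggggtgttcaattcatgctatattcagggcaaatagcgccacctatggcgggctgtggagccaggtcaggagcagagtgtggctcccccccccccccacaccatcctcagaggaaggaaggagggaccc
The sequence at the p19Arf start holds 1 such motif, from 99 to 92 bases before the RefSeq start, as 1.86% of the 32851 promoters do, and the sequence at the p16Ink4a start holds none of these letters. *Cdkn2a* was read at 251, 309 and 200.4 CPM in NSCHRas-shp53 samples 1 to 3, against 181, 158, 123 and 176 CPM in NPCTKO samples 1 to 4. The models did not overlap, as was the case in this direction for 16.3% of all genes. The log2 fold change of 0.67 (SE 0.29, adjusted p = 0.16) did not pass the test, nor did it in any of the 15 alternatives. The RNA of the locus that is often deleted in human GBM was thus read in all 7 samples of both models, far above the floor.

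As a family on the FPKM scale, *Cdkn2a*, *Cdkn2b* and *Cdkn2c* summed to 459, 634 and 354 in NSCHRas-shp53 samples, against 239, 205, 236 and 265 in NPCTKO samples. FPKM were not rescaled between samples, and their totals over all rows differed. These totals were 972436 and 952516 in NPCTKO samples 1 and 2 and 419433 to 553275 in the other libraries. *Cdkn2a* made up most of the *Cdkn2* sum in every sample, with 73.7 to 81.9% in NSCHRas-shp53 and 76.0 to 83.6% in NPCTKO samples. *Cdkn2b* took 16.0 to 23.2% in NSCHRas-shp53 and 4.11 to 9.18% in NPCTKO samples. The share of *Cdkn2c* was 2.65% ± 0.491 in NSCHRas-shp53 and 12.7% ± 1.66 in NPCTKO samples (SD, n = 3 and 4), with no overlap. The exact permutation test over 35 splits gave a two-sided p of 0.029, the smallest it can give, and 0.071 after Benjamini-Hochberg adjustment over the 5 shares tested. *Cdkn2d*, which encodes the remaining INK4 protein p19Ink4d and was singled out after its values were seen, was read at 24.5, 25.0 and 18.2 CPM in NSCHRas-shp53 samples and 45.7, 39.5, 28.4 and 29.4 CPM in NPCTKO samples (log2 fold change -0.66, SE 0.31, adjusted p = 0.18).

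**Figure D2:**
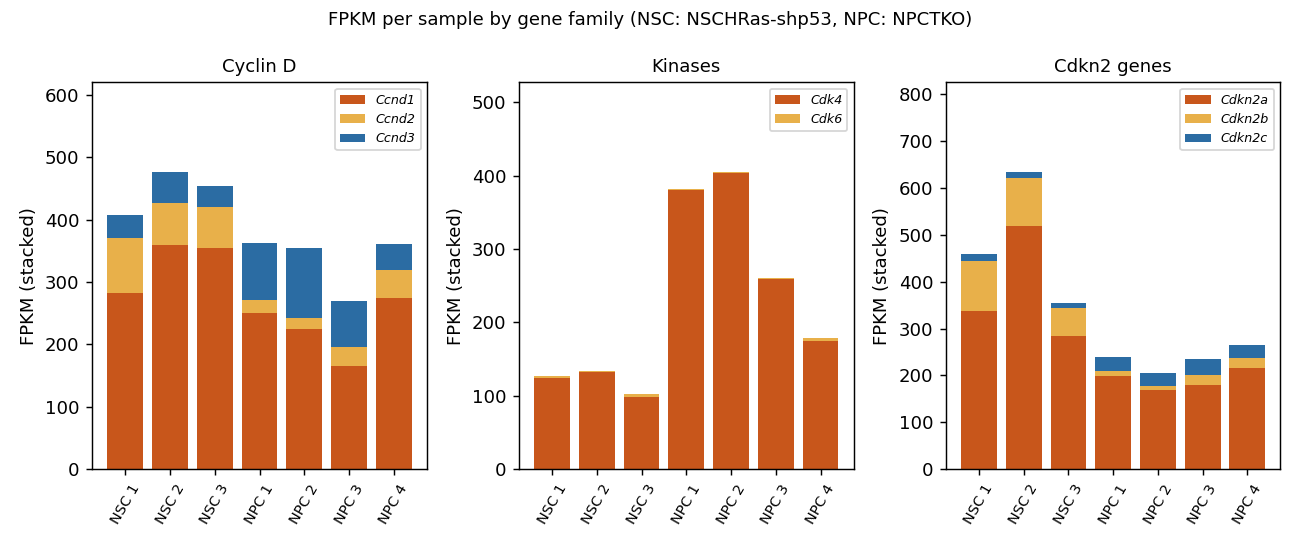
FPKM per sample, stacked by gene, for the D-type cyclins, the kinases and the *Cdkn2* genes, with the 3 NSCHRas-shp53 samples (NSC) to the left of the 4 NPCTKO samples (NPC) in each panel and every axis starting at 0. The kinase bars are nearly all *Cdk4* and reach 103 to 134 FPKM in NSCHRas-shp53 and 179 to 406 FPKM in NPCTKO samples, while the *Cdkn2* bars are taller in NSCHRas-shp53 samples with a visible *Cdkn2b* layer.

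Of the kinases, *Cdk4* was lower in NSCHRas-shp53 GBMs. *Cdk4*, on chromosome 10 from 127063534 to 127067920 on the plus strand, reached 160, 168 and 127 CPM in NSCHRas-shp53 samples 1 to 3, against 556, 580, 320 and 236 CPM in NPCTKO samples 1 to 4. Although the models did not overlap, the NPCTKO samples spread widely, with samples 1 and 2 above samples 3 and 4. Its difference was -1.48 on the log2 scale (SE 0.41, adjusted p = 0.047), which is 2.79-fold lower. It was -0.84 (adjusted p = 0.069) without NPCTKO samples 1 and 2 and -1.92 (adjusted p = 0.0012) without samples 3 and 4, and 7 of 15 alternatives called it. The call was lost without NPCTKO sample 1 or 2 and without any NSCHRas-shp53 sample, with adjusted p-values of 0.10 to 0.20. Of the *Cdk4* exon bases, 19.7% are shared with *Tspan31* on the other strand, and since the library kit did not keep strand, reads there cannot be assigned. *Tspan31* itself had 1117 to 1609 counts in NSCHRas-shp53 and 1103 to 2422 counts in NPCTKO samples.

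The sequence upstream of *Cdk4* is shown because it holds several E-boxes (CACGTG, which reads the same on both strands), the motif bound by Myc and related factors. They are in capitals.
Cdk4, chr10:127063285-127063534, plus strand: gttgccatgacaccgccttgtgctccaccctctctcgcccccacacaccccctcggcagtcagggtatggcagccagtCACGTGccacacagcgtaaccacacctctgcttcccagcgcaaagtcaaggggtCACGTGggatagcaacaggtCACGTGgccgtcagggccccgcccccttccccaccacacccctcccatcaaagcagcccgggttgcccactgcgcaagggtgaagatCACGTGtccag
The 4 E-boxes end 167, 113, 93 and 6 bases before the RefSeq start. At least 1 E-box stands in 6.02% of the 32851 promoters of this length and at least 4 in 0.0213% of them, 7 promoters in all. The only other gene of the 10 with this motif in a matched promoter was *Cdk6*, with 1. These are matches of letters and not measured binding.

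*Cdk6*, on chromosome 5 from 3341485 to 3531008, reached 39.7, 35.6 and 46.8 CPM in NSCHRas-shp53 samples 1 to 3, against 12.4, 17.1, 14.7 and 55.1 CPM in NPCTKO samples 1 to 4. NPCTKO sample 4 lay above all NSCHRas-shp53 samples and the other 3 NPCTKO samples lay below them, so the models overlapped. The log2 fold change of 0.71 (95% interval -0.51 to 1.93, adjusted p = 0.41) did not pass the test. Without NPCTKO sample 4 it was 1.46 (adjusted p = 0.028), so this library decides the call. Per length, *Cdk6* was the least abundant of the 10 genes in every sample, at 2.43 to 3.99 FPKM in NSCHRas-shp53 and 1.21 to 4.55 FPKM in NPCTKO samples. Its share of the kinase FPKM was 2.74% ± 1.06 in NSCHRas-shp53 and 0.936% ± 1.07 in NPCTKO samples (SD, n = 3 and 4, exact permutation p = 0.11, adjusted p = 0.14).

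Among the D-type cyclins, which form the regulatory subunits of these kinases, *Ccnd2* was higher in NSCHRas-shp53 GBMs and *Ccnd1* was the most abundant in both models. *Ccnd2*, on chromosome 6 from 127125162 to 127152193 on the minus strand, reached 398, 272 and 315 CPM in NSCHRas-shp53 samples 1 to 3, against 88.1, 77.0, 134 and 194 CPM in NPCTKO samples 1 to 4. The models did not overlap, and NPCTKO sample 4 came nearest to NSCHRas-shp53. The difference was 2.67-fold (log2 fold change 1.42, SE 0.38, adjusted p = 0.045). It was 1.04 (adjusted p = 0.059) without NPCTKO samples 1 and 2 and 1.98 (adjusted p = 0.0015) without samples 3 and 4. The call sat near the threshold. Leaving out NPCTKO sample 1, 2 or 3 or any NSCHRas-shp53 sample gave adjusted p-values of 0.053 to 0.14, and 5 of 15 alternatives called the gene.

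*Ccnd3*, on chromosome 17 from 47505051 to 47599691, had values of 65.4, 94.3 and 70.8 CPM in NSCHRas-shp53 samples 1 to 3, against 225, 265, 131 and 85.2 CPM in NPCTKO samples 1 to 4. Samples 1 and 2 were again the high pair, and NPCTKO sample 4 fell within the NSCHRas-shp53 values. Its log2 fold change was -1.20 (SE 0.43, adjusted p = 0.10), with -0.46 (adjusted p = 0.28) without NPCTKO samples 1 and 2 and -1.68 (adjusted p = 0.0017) without samples 3 and 4. Without NPCTKO sample 4 alone, the gene passed the test at -1.43 (adjusted p = 0.047). It also passed at -1.05 (adjusted p = 0.038) with each library's trends with transcript GC content and length removed. This last alternative was chosen after the data were seen and called 23.1% of all genes. A processed copy, *Ccnd3-ps*, had at most 16 counts in a library.

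*Ccnd1*, on chromosome 7 from 144929931 to 144939925, is the D-type cyclin that growth factor signaling through Ras and ERK is best known to induce. Its CPM were 516, 511 and 715 in NSCHRas-shp53 samples 1 to 3, against 516, 474, 324 and 574 in NPCTKO samples 1 to 4. The models overlapped, and the log2 fold change was 0.30 (95% interval -0.47 to 1.07, adjusted p = 0.59). Equal levels were not shown, since the interval spans both directions. On the FPKM scale the models did not overlap, at 282, 360 and 354 in NSCHRas-shp53 samples and 251, 225, 166 and 275 in NPCTKO samples, but limma did not call the gene there either (adjusted p = 0.26). The nearest values, 282 and 275, were close, and FPKM were not rescaled between samples. The share of all genes without overlap on this scale was not counted. The exons of *Ccnd1* overlap those of *LTO1* on the other strand over 23.4% of their length, and its FPKM row also carries the name of a microRNA.

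As shares of the cyclin D FPKM, *Ccnd1* took 74.2% ± 4.48 in NSCHRas-shp53 and 67.6% ± 6.51 in NPCTKO samples (SD, n = 3 and 4, exact permutation p = 0.20, adjusted p = 0.20). With shares of CPM in place of FPKM the sign of this difference turned, to -2.06 percentage points. *Ccnd2* took 16.8% ± 4.33 in NSCHRas-shp53 and 8.53% ± 3.68 in NPCTKO samples, without overlap (exact permutation p = 0.029, adjusted p = 0.071). *Ccnd3* took 8.99% ± 1.56 in NSCHRas-shp53 and 23.9% ± 8.46 in NPCTKO samples (exact permutation p = 0.057, adjusted p = 0.095). The smaller partners thus stood in opposite order, *Ccnd2* above *Ccnd3* in each NSCHRas-shp53 sample and *Ccnd3* above *Ccnd2* in NPCTKO samples 1 to 3, with 12.1% *Ccnd2* and 11.9% *Ccnd3* in NPCTKO sample 4. None of the 5 shares passed the test after adjustment.

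Cyclin and inhibitor RNA relative to kinase RNA followed from these values. The cyclin D sum over the *Cdk4* and *Cdk6* sum was 3.19, 3.55 and 4.43 in NSCHRas-shp53 samples, against 0.949, 0.875, 1.03 and 2.02 in NPCTKO samples (ratios of FPKM). The *Cdkn2* sum over the same kinase sum was 3.60, 4.72 and 3.45 in NSCHRas-shp53 samples, against 0.625, 0.505, 0.902 and 1.48 in NPCTKO samples. In both ratios NPCTKO sample 4 was the nearest to the NSCHRas-shp53 samples. These ratios are descriptions of RNA and were not tested, and *Cdkn2a* in the numerator includes the p19Arf transcript.

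The last members are the p27Kip1 gene and the target of the kinases. *Cdkn1b*, on chromosome 6 from 134920401 to 134925513, varied least of the 10 genes, with 76.2, 75.3 and 54.8 CPM in NSCHRas-shp53 samples 1 to 3, against 85.8, 90.5, 87.7 and 115 CPM in NPCTKO samples 1 to 4. All NSCHRas-shp53 samples lay below all NPCTKO samples, as for 14.9% of all genes, and the log2 fold change of -0.46 (SE 0.26, adjusted p = 0.28) did not pass the test. With the GC and length trends removed it was -1.08 (adjusted p = 0.049). That fit called 23.1% of all genes, with a median log2 fold change of -0.29 over all genes.

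*Rb1*, on chromosome 14 from 73183673 to 73325822 on the minus strand, had 28.8, 17.5 and 23.8 CPM in NSCHRas-shp53 samples 1 to 3, against 7.80, 8.89, 33.9 and 33.8 CPM in NPCTKO samples 1 to 4. The NPCTKO pairs stood on either side of the NSCHRas-shp53 samples. The log2 fold change was 0.15 (95% interval -1.19 to 1.48, adjusted p = 0.90), 1.47 (adjusted p = 0.0075) without NPCTKO samples 3 and 4 and -0.50 (adjusted p = 0.25) without samples 1 and 2, so no direction can be given. The longest *Rb1* transcript has 41.2% GC, the lowest of the 10 genes, and the NPCTKO samples where it was low are those that lean towards GC-rich transcripts. That of *Cdkn1b* has 43.1%, the next lowest, and the gene had 85.8, 90.5, 87.7 and 115 CPM in NPCTKO samples 1 to 4. The part of GC content in the *Rb1* values was not tested. With the GC and length trends removed the log2 fold change of *Rb1* was -0.26 (adjusted p = 0.56). *Rb1* exons share 8.11% of their bases with *Rcbtb2* and 6.78% with *Lpar6*, both on the other strand.

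**Figure D3:**
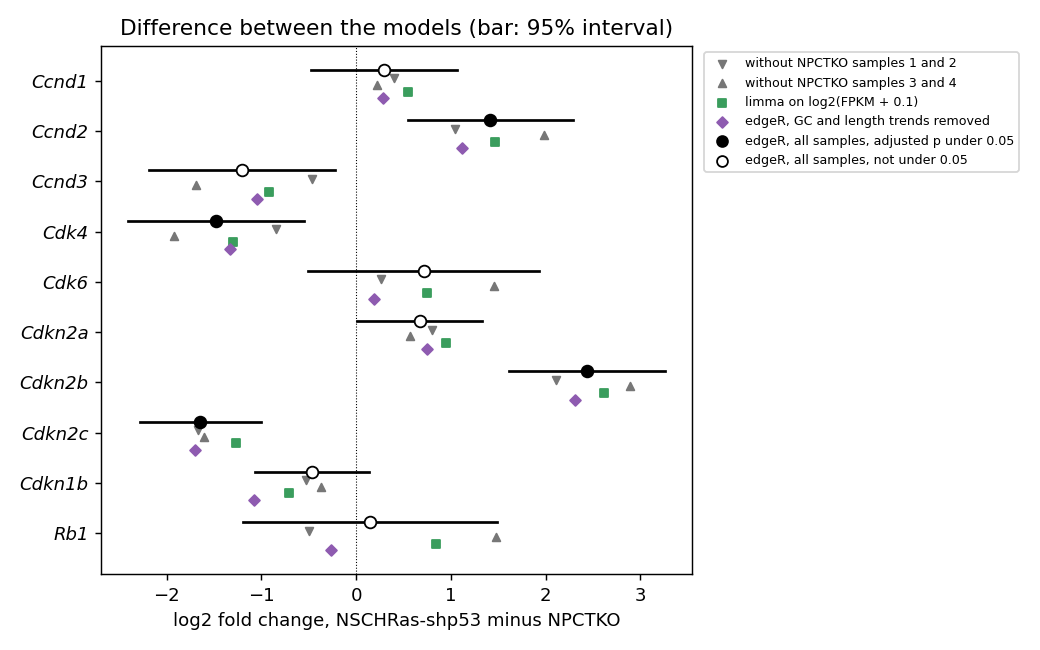
Log2 fold change (NSCHRas-shp53 minus NPCTKO) of each gene from edgeR with its 95% interval (circles, filled where the adjusted p is under 0.05), and below it the value without NPCTKO samples 1 and 2, without samples 3 and 4, from limma on FPKM, and with GC and length trends removed. *Rb1* lies on both sides of 0, from -0.50 to 1.47, while the points of each of the other 9 genes stay on a single side.

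Ordered by FPKM within a sample, *Ccnd1* and *Cdkn2a* were the highest of the 10 genes in all 3 NSCHRas-shp53 samples, with *Cdk4* next. In NPCTKO samples 1, 2 and 3 *Cdk4* came first, and in sample 4 the order was *Ccnd1*, *Cdkn2a*, *Cdk4*, with 275, 216 and 174 FPKM. *Cdkn2b* stood above *Cdkn1b* and *Ccnd3* in every NSCHRas-shp53 sample and below both in every NPCTKO sample. *Rb1* and *Cdk6* were the lowest pair in each NPCTKO sample, whereas in NSCHRas-shp53 samples 2 and 3 *Cdkn2c* stood below *Rb1*. In NSCHRas-shp53 samples *Ccnd1* and *Cdkn2a* averaged 332 ± 43.5 and 380.5 ± 123 FPKM (SD, n = 3). *Cdkn2a* was the higher in samples 1 and 2 and *Ccnd1* in sample 3. In NPCTKO samples *Cdk4* and *Ccnd1* averaged 305 ± 107 and 229 ± 46.9 FPKM (SD, n = 4). *Cdk4* was the higher in samples 1 to 3 and *Ccnd1* in sample 4. These differences between genes were not tested.

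Downstream of the checkpoint, genes that E2F factors switch on for S phase were lower in NSCHRas-shp53 GBMs. Of 27 tested E2F target genes of 30 listed, 16 were called lower and none higher, with a median log2 fold change of -1.74 beside -0.10 over all genes tested, of which 5.28% were called lower. The summed CPM of the list were 558 to 597 in NSCHRas-shp53 and 1756 to 2203 in NPCTKO samples. The 4 with the smallest p were *Mcm5*, *Mcm2* and *Mcm6*, subunits of the replicative helicase, and *Mybl2*, a transcription factor of proliferating cells. *Mcm5* averaged 21.8 ± 2.23 CPM in NSCHRas-shp53 and 196 ± 69.3 CPM in NPCTKO samples (SD, n = 3 and 4), a log2 fold change of -3.17 (adjusted p = 0.0037), and the log2 fold changes of the other genes were -2.48 for *Mybl2*, -2.34 for *Mcm2* and -1.98 for *Mcm6*. *Tk1*, *Cdt1* and *Gins2* had 0 counts in every library and were not tested by edgeR, but had FPKM values in every library. For *Tk1* these were 5.22 to 8.68 in NSCHRas-shp53 and 13.1 to 31.9 in NPCTKO samples. In the same order they were 8.32 to 13.9 and 24.1 to 40.6 for *Cdt1*, and 8.74 to 14.1 and 12.2 to 27.7 for *Gins2*. Without NSCHRas-shp53 sample 1, 2 or 3 the count was 10, 10 and 8, in that order. These fits called fewer genes in all, 938 of 16738, 602 of 16637 and 539 of 16521, with 234, 143 and 124 of them lower. The count also moved with the NPCTKO samples. It was 23 without NPCTKO samples 1 and 2 and 20 without samples 3 and 4. These 2 fits called 1231 of 16631 and 4313 of 16601 genes lower.

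Of the 18 mitotic genes, all tested, 9 were lower and none higher, with a median log2 fold change of -1.92. Among all genes tested, 5.28% were called lower. *Cdc20*, which activates the anaphase-promoting complex, had a log2 fold change of -2.93, and *Birc5*, *Foxm1* and *Aurkb* had log2 fold changes of -2.38, -2.30 and -2.19. Without NSCHRas-shp53 sample 3 the count was 6, the lowest with 1 sample left out, in a fit that called 539 of 16521 genes, 124 of them lower. Without NPCTKO samples 1 and 2, 17 were lower, where 1231 of 16631 genes were called lower. Without samples 3 and 4, 10 were lower and 2 higher, where 4313 of 16601 genes were called lower and 4638 higher. The summed CPM of the list were 343 to 359 in NSCHRas-shp53 samples, against 887 and 814 in NPCTKO samples 1 and 2 and 1575 and 1713 in samples 3 and 4. Astrocyte, neuron, endothelial and pericyte markers were higher in the same NSCHRas-shp53 samples, as given above, which were not sorted, and the part of these cells in the lower cycle genes was not tested.

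Of 29 other genes of the G1/S transition, 27 were tested, 3 were lower and none was higher in the edgeR fit with all samples, with a median log2 fold change of -0.59, where 13.1% of all genes were called and 5.28% were called lower. A share of this size is close to the background and is no result about the list. None of its genes was called without NSCHRas-shp53 sample 2 or without sample 3, where 602 of 16637 and 539 of 16521 genes were called. DESeq2 called 6 lower and 1 higher, where it called 20.5% of all genes. *E2f2*, an activating E2F factor, was read at 6.07, 5.58 and 6.66 CPM in NSCHRas-shp53 samples 1 to 3, against 61.1, 32.9, 21.3 and 25.5 CPM in NPCTKO samples 1 to 4. The models were far apart for this gene (log2 fold change -2.53, SE 0.45, adjusted p = 0.012). *Cdc25a*, the phosphatase that activates Cdk2, stood at -1.45 on the log2 scale (adjusted p = 0.015), and *Tfdp1*, the partner with which E2F factors bind DNA, at -1.04 (adjusted p = 0.042). *Fbxw7* and *Fbxo31* had 0 counts in every library and were not tested by edgeR, but both had FPKM values in every library. These were 5.56 to 8.35 in NSCHRas-shp53 and 3.24 to 6.03 in NPCTKO samples for *Fbxw7*. For *Fbxo31* they were 7.58 to 9.15 and 5.56 to 16.6 in the same order. Without NPCTKO samples 1 and 2, 5 genes of this list were lower, where 1231 of 16631 genes were called lower. Without samples 3 and 4, 11 were lower and 3 higher, where 4313 of 16601 genes were called lower and 4638 higher.

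**Figure D4:**
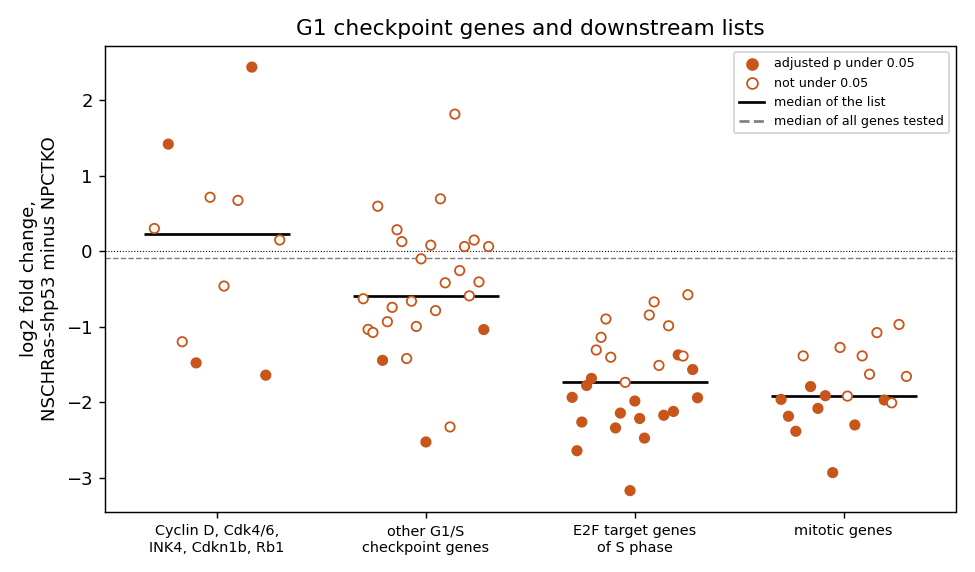
Log2 fold change (NSCHRas-shp53 minus NPCTKO, edgeR) of each tested gene of the 10 checkpoint genes, 27 other G1/S genes, 27 E2F targets and 18 mitotic genes, filled where the adjusted p is under 0.05, with the median of each list as a black line and that of all genes tested as a dashed gray line. The list medians are 0.22, -0.59, -1.74 and -1.92, and no filled point of the last 3 lists lies above 0.

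The genes whose pattern over the 7 samples came nearest to the 3 most variable members were found by the root mean square difference of centred log2(CPM + 1) among 12295 genes. For *Cdkn2b* these were *Grm3*, *Gt(ROSA)26Sor* and *Wwtr1*, with differences of 0.22, 0.28 and 0.29. *Gt(ROSA)26Sor* is the locus of the Ai14 reporter carried by mice of the paper, and whether that allele bears on its counts was not tested. *Wwtr1*, the gene of the Hippo pathway coactivator TAZ, was read at 206, 163 and 144 CPM in NSCHRas-shp53 samples and 28.8, 23.0, 45.8 and 71.5 CPM in NPCTKO samples. For *Ccnd2* they were *Sfxn5*, *Rdh10* and *Efcab2* (0.15, 0.17 and 0.17), and for *Cdk4* they were *Cdc42se1*, *Sf3a2* and *H2afx* (0.095, 0.11 and 0.12). *Sf3a2*, a splicing factor subunit, had 40.7, 40.5 and 30.4 CPM in NSCHRas-shp53 and 134, 130, 64.7 and 58.6 CPM in NPCTKO samples, with the same step between NPCTKO samples 1 and 2 and samples 3 and 4 as *Cdk4*. These likenesses are descriptions over 7 libraries.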

How the data were processed

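RNA of 3 NSCHRas-shp53 and 4 NPCTKO GBM samples was sequenced by the authors as poly(A), paired-end libraries without strand. The raw counts per gene, as deposited, rest on reads that the authors mapped to mm10 with TopHat2 2.1.1 after Cutadapt trimming, and no source used here names the counting tool. The deposited FPKM are the authors' Cufflinks 2.2.1 output, 1 row for each locus. Rows with the same name were summed and 3767 unnamed rows were left out, as were 0 columns of other series.

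Genes were compared with edgeR 4.0.16 in R 4.3.3 by its quasi-likelihood test after filterByExpr and TMM scaling, with a threshold of 0.05 on the Benjamini-Hochberg adjusted p, as NSCHRas-shp53 minus NPCTKO, and the fit was tested on simulated data. SE and 95% intervals were derived from the F statistic. Shares of FPKM were compared by two-sided exact permutation over 35 splits, with Python 3.11.15. Levels were compared between genes only as FPKM, which were not rescaled between samples. The floor of 3 counts covers counting error only. Alternatives were DESeq2 1.42.0, no TMM factors, no filter, a replicate block, leaving out each sample or a pair of NPCTKO samples, limma 3.58.1 on log2(FPKM + 0.1) where the mean FPKM reached 0.1, shares of CPM and, chosen after the data were seen, offsets for GC content and length (splines with 5 degrees of freedom, 97.4% of tested genes matched). No library was a copy of another within sampling noise.

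Named are all 10 members, in the 3 cell cycle lists the called genes with the 4 smallest p-values or all called if fewer, in each marker list the marker with the highest mean CPM and those at 0, and the 3 genes (mean CPM of at least 5) most like each of the 3 members with the widest range. The members and lists were chosen with earlier results of these data known.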

Additional observations from a re-analysis of the deposited data

Results flagged for a closer look

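In NPCTKO sample 4, *Cdk6* took 2.54% of the *Cdk4* and *Cdk6* FPKM, against 0.316 to 0.506% in the other 3 NPCTKO samples. Its gap to the nearest of them was 0.915 of the range of the 4 samples, above Dixon's critical value for 4 samples. This was the only one of 15 sets of 4 NPCTKO values tested to pass, and chance passes about 1 in 20.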

How the results depend on the processing

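Of the 10 genes, *Cdkn2b* was called in 15 of 15 alternatives and *Cdkn2c* in 13, *Cdk4* in 7, *Ccnd2* in 5, *Ccnd3* in 3, *Cdk6* in 2, *Cdkn1b* and *Rb1* in 1 each, and *Ccnd1* and *Cdkn2a* in 0. No gene but *Rb1* changed direction in any of them. The log2 fold change of *Rb1* was -0.50 without NPCTKO samples 1 and 2 and -0.26 with GC and length offsets, and from -0.10 to 0.47 with 1 sample left out. The samples share only a replicate number, with correlations of same-numbered deviations of 0.28, -0.19 and 0.19. With the replicate block, 1041 genes in all, 1 of the 10 genes (*Cdkn2b*), 1 other G1/S gene, 8 E2F targets and 1 endothelial gene were called. DESeq2 called 4031 genes and 7 other G1/S genes, and without TMM factors 1 other G1/S gene was called. Without a filter 2 of the 10 genes were called, where 1883 of 25184 genes were called in all. GC and length offsets gave 3725 genes, 8 other G1/S genes, 14 mitotic genes and 0 mature oligodendrocyte genes. Of the calls, 40.2% were higher with these offsets, beside 59.5% in the reported fit and 69.2% without TMM factors, and the median log2 fold change of all genes was -0.29, -0.10 and 0.09, so that small differences depend on the scaling.

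Without NPCTKO samples 1 and 2, 2719 of 16631 genes were called. Among them were 2 of the 10 genes, 5 other G1/S genes and 17 mitotic genes. They also held 1 macrophage and microglia gene, 2 T cell genes and 3 mature oligodendrocyte genes. Without NPCTKO samples 3 and 4, 8951 genes, 7 of the 10 genes, 14 other G1/S genes, 12 macrophage and microglia genes, 2 T cell genes and 3 mature oligodendrocyte genes were called. With 1 sample left out, counts ranged from 539 to 2595 for all genes, 1 to 6 for the 10 genes, 0 to 4 for other G1/S genes, 8 to 16 for E2F targets, 6 to 10 for mitotic genes, 0 to 1 for T cells, 0 to 5 for endothelial cells, 5 to 9 for pericytes and smooth muscle, 4 to 9 for neurons, 0 to 1 for mature oligodendrocytes, 6 to 8 for astrocytes and 2 to 8 for precursors. The lowest count of all genes was without NSCHRas-shp53 sample 3, with 539 of 16521 genes and 1 of the 10 genes called. The 6 of the 10 genes were called without NPCTKO sample 4, where 1814 of 15872 genes were called. For the shares, fewer samples cannot reach an exact permutation p under 0.05. The *Ccnd2* share differed by 5.08 (exact p = 0.30) without NPCTKO samples 1 and 2, by 11.4 (p = 0.10) without samples 3 and 4, and by 5.75 to 9.62 points with 1 left out. The *Cdkn2c* share differed by -10.2 (exact p = 0.10), -9.94 (exact p = 0.10) and -10.7 to -9.39 points in the same cases. The *Ccnd1* share turned to -2.06 points with CPM. The causes were not tested. The alternatives planned for members without counts were not run, since all members had counts.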

Other observations

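*E2f8*, an E2F factor that represses E2F target genes, was chosen after its values were seen. It was read at 9.67, 71.9 and 88.9 CPM in NSCHRas-shp53 samples 1 to 3, against 14.9, 14.6, 19.9 and 15.4 CPM in NPCTKO samples 1 to 4. NSCHRas-shp53 sample 1 lay below every NPCTKO sample and samples 2 and 3 lay above them, so the models overlapped (log2 fold change 1.81, adjusted p = 0.089 from edgeR).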
